A study of Mus musculus with 17 samples.

Results

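The lymph node CD44high single cells (lymphH) came from a breast cancer culture that had been grown out of tumor-bearing lymph nodes (LN) of MMTV-PyMT mice. They were taken as the barcodes of the LN single-cell matrix with more than 500 genes detected and less than 10% of their counts in the 13 genes whose symbols begin with mt-, which are encoded by the mitochondrial genome. The rule kept 348 of the 3297 lymphH barcodes. It kept 221 of the 3623 barcodes of the lung-derived CD44high library (lungH) and 235 of the 2808 barcodes of the lung-derived CD44low library (lungL), so that 804 of 9728 barcodes entered the comparisons. All mice were females of the FVB/NJ strain that carried the polyomavirus middle T oncogene (PyMT) under the mouse mammary tumor virus promoter (MMTV), which is active mainly in mammary epithelium, and every group compared here carried this transgene. The mice were 10 to 12 weeks old when their organs were taken. The labels give 10 mice for the whole suite of cultures and no drug treatment, and they do not say which mouse gave which culture, while by the study's methods the replicates of a group were separate clones from different mice. Cells were grown in conditions that favored cancer cells and were sorted for high surface EpCAM together with high or low surface CD44. The libraries thus stand for clonal isolates, of which lymphH may hold more than 1, and not for all tumor cells of a site. The same suite was profiled as 14 bulk RNA libraries, 2 each from mammary fat pad tumor cells (MFP) and from CD44high and CD44low cultures of LN, bone marrow (BM) and lung.

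Mammary luminal epithelium is held together by tight junctions, in which claudins such as Cldn3 form the seal, and by adherens junctions built on E-cadherin (Cdh1). Krt8 pairs with Krt18 in the intermediate filaments of simple epithelia, and EpCAM is an adhesion protein of carcinoma cells. In an epithelial-to-mesenchymal transition (EMT) these genes are lowered by repressors of the Snail and Zeb families, and vimentin (Vim), fibronectin (Fn1) and other matrix genes are raised. CD44, the hyaluronan receptor used for the sort, is also a marker of invasive carcinoma cells, and axillary nodes are usually the earliest site that breast carcinoma reaches.

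The promoters of epithelial markers of the LN cells are shown because Snail and Zeb repressors are known to bind a 6-base E-box in such promoters. Each sequence runs 5′ to 3′ on the gene's own strand, from 250 bases before to 50 bases after the RefSeq start on GRCm38.p6, and capitals mark CACCTG or its reverse complement CAGGTG, which is the same site on the other strand. The windows are chr5:134985964-134986263 (plus strand) for Cldn3, chr17:87635729-87636028 (plus strand) for Epcam and chr15:102004293-102004592 (minus strand) for Krt8. Cdh1 is not in the promoter table.
Cldn3: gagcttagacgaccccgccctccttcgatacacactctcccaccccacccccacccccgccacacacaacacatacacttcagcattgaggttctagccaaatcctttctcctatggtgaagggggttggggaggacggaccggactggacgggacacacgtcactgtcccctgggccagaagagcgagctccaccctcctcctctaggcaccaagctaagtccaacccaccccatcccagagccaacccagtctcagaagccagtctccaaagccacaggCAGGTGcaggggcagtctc
Epcam: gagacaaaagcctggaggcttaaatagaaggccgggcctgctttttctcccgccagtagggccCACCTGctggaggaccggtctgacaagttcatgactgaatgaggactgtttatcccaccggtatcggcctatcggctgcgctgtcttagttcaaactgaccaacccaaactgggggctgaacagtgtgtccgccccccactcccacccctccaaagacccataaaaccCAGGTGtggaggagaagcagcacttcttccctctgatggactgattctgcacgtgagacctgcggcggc
Krt8: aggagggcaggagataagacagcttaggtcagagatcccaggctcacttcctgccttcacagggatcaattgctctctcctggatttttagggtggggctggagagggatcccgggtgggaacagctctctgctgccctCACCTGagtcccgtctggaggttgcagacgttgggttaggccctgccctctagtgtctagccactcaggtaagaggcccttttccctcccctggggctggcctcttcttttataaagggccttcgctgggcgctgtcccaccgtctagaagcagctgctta
The E-box of Cldn3 began 32 bases after the start site. Those of Epcam began 187 and 19 bases before the start, and that of Krt8 began 111 bases before it. At least 1 match was present in 6640 of 32851 promoters of the same length (20.2%), and at least 2 matches in 946 (2.88%), so the match is a description of these letters and not evidence of binding. Of the repressor genes, which were named after their values were seen, Zeb1 was at 0.20 counts per 10000 in lymphH, 0.64 in lungH and 1.28 in lungL, and Zeb2 at 0.237, 0.490 and 0.530. Snai2 was at 0.0173, 0.187 and 0.456, and Snai1 had 2 counts in lymphH, 1 in lungH and 64 in lungL.

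Transcript levels are given as counts per 10000, that is, the counts of a gene summed over the kept cells of a library and divided by all counts of those cells. Each single-cell group was 1 library, so no test was possible between them. All 3 matrices are labelled as merged, and those of lung also as replicate 1. By the study's methods, single-cell samples had replicates from different mice. No map from cells to separate clones or mice is given, so each matrix was treated as 1 sample. Brackets hold exact 95% Poisson intervals for levels and ratios and exact Clopper-Pearson intervals for shares of cells, and both cover counting error only. A level based on fewer than 3 counts was set to 3 counts when a ratio was taken.

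The lymphH cells held more counts and genes at the median than the lung cells. They held 4045692 counts, with a median of 13607.5 counts and 3880 genes a cell, against medians of 7023 counts and 2244 genes in lungH and 9698 counts and 2809 genes in lungL. The number of genes in a lymphH cell ran from 501 to 6145, and its lower quartile, 993.25, was below the 1453 of lungH and the 1442.5 of lungL. Of the 348 cells, 213 had more than 3000 genes, 48 had 1001 to 3000, and 87 had 501 to 1000 genes with a median of 1010 counts. These 87 cells adjoined the large population of barcodes with few genes in the same matrix. At the limit, 126 barcodes with 451 to 500 genes were left out and 31 with 501 to 550 genes were kept, against 6 and 4 in lungH and 9 and 6 in lungL. Epcam stood at 2.65 counts per 10000 just outside the limit and 2.28 just inside it, and the 8-gene epithelial marker list at 8.89 and 11.02. Whether the shallowest kept barcodes held whole cells or free RNA was not tested. No cell of 1 library was identical to a cell of another, and the matrices number their columns, so barcodes shared between libraries could not be counted.

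**Figure D1:**
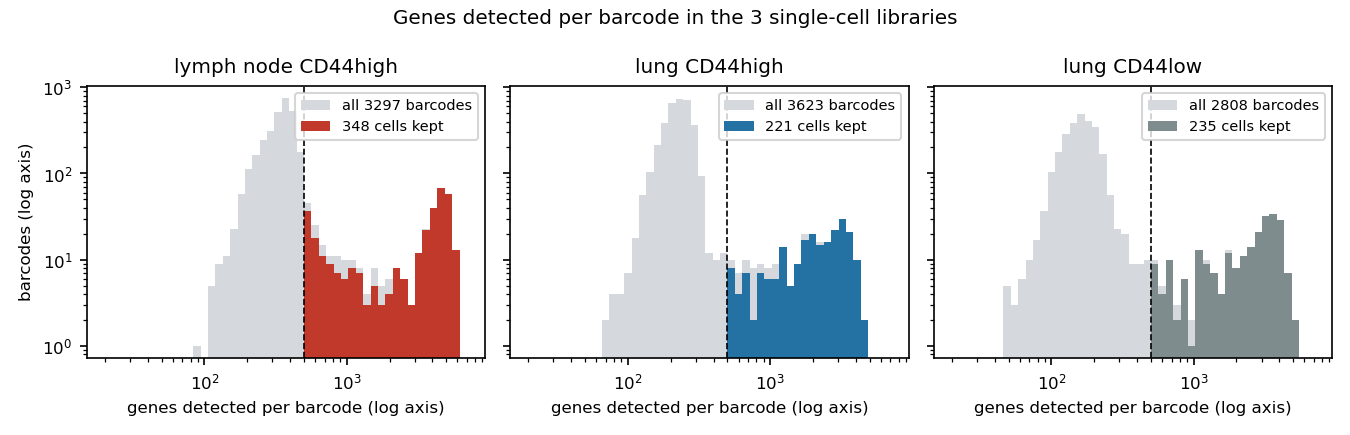
Genes detected per barcode (log axis) against the number of barcodes (log axis) in the 3 single-cell libraries, with all barcodes in light gray, kept cells in color and the limit of 500 genes as a dashed line. The lymphH cells form a peak above 3000 genes (213 cells), and their shallow end (87 cells with 501 to 1000 genes) adjoins the large peak of barcodes below the limit.

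The study reported Cldn3, Krt8 and Cdh1 mainly in its lymph node CD44high cells, from the same data. Their levels here are thus a description and not an independent check. Cldn3 (chr5:134986214-134987472, plus strand) was at 3.07 counts per 10000 [2.9 to 3.25] in lymphH, 0 in lungH and 0.205 in lungL, and was seen in 68.7% of lymphH cells, none of the lungH cells and 7.66% of lungL cells. It was therefore at least 169-fold higher than in lungH and 15-fold higher [11.1 to 20.8] than in lungL. Cdh1 (chr8:106603351-106670246, plus strand) was at 0.43 [0.369 to 0.499] and was detected in 76 lymphH cells (21.8%), whereas no count was found in either lung library. Its ratios were at least 23.7-fold over lungH and 30.8-fold over lungL, although its level was below the 1 per 10000 that the gene counts given later require. Krt8 (chr15:101996698-102004482, minus strand) was present in 67.0% of lymphH cells, 41.2% of lungH cells and 4.26% of lungL cells. Its level of 2.80 [2.64 to 2.97] was 1.62-fold that of lungH [1.43 to 1.86] and 21.5-fold that of lungL [14.8 to 32.5]. Thus, Cldn3 and Cdh1 set lymphH apart from both lung libraries, and Krt8 did so mainly from lungL.

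EpCAM had been used to sort all 3 cultures, but its RNA was found almost only in lymphH. Epcam (chr17:87635979-87651129, plus strand) was detected in 176 lymphH cells (50.6%) at 1.81 counts per 10000 [1.68 to 1.95]. In lungH it had 2 counts in all, in 0.452% of cells, and the interval of the ratio ran from 41.3-fold to 1240-fold. In lungL it had none, which gives a ratio of at least 130-fold. The lung libraries thus did not show the RNA of the protein they were sorted for, and every comparison with them is a comparison with cells of that kind.

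The share of cells with a transcript depended on depth. Epcam was seen in 11.5% of lymphH cells with 501 to 1000 genes, 35.4% of those with 1001 to 3000 and 70.0% of those with more than 3000, although its level was similar in the 3 classes (1.46, 2.08 and 1.81 counts per 10000). The shares of Cldn3 in the same order were 26.4%, 43.8% and 91.5%, and those of Krt8 were 14.9%, 62.5% and 89.2%. When each cell was thinned to 1000 counts, which kept 306 lymphH, 220 lungH and 233 lungL cells and left out 42, 1 and 2 shallower ones, Cldn3 was present in 23.5%, 0% and 0.858% of cells.

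Counts of epithelial markers and of Vim were found under the same lymphH barcodes. At least 1 of Cldn3, Cdh1, Krt8 and Epcam was detected in 289 cells, and 214 of these also had Vim. Among the 261 cells with more than 1000 genes, 250 had at least 1 of the 4 markers. At least 2 of the markers were detected in 224 lymphH cells, in 0 lungH cells and in 5 lungL cells. All 4 were present in 63 cells with a median of 17218 counts, and 32 of these had Vim, against 77 of the 85 cells with 3 markers, whose median was 17853 counts. The 59 cells with none of the markers had a median of 1110 counts, and 22 of them had Vim. Of the 176 cells with Epcam, 125 also had Vim. The lymphH barcodes with 500 genes or fewer, which were left out, held the same transcripts at similar levels, with Vim at 6.13 counts per 10000 against 6.27 in the kept cells, Krt8 at 2.79 against 2.80 and Epcam at 1.64 against 1.81. The 13 cells that were called doublets were kept. The part of free RNA and of doublets in these pairs of transcripts was not tested, so the counts do not show that single cells expressed both. After thinning, counts of the epithelial marker list exceeded those of the EMT list in 66 of 306 lymphH cells, 0 of 220 lungH cells and 0 of 233 lungL cells. The EMT list had more counts than the epithelial list in 172 of the 306 lymphH cells, 218 of the lungH cells and 229 of the lungL cells, and the medians in lymphH were 1 epithelial and 2 mesenchymal counts a cell.

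Of 2422 genes with at least 1 count per 10000 in lymphH or lungH, 101 (4.17%) were more than 4-fold higher in lymphH and 103 (4.25%) more than 4-fold lower. Against lungL, 118 of 2467 genes (4.78%) were higher and 190 (7.7%) lower. The median log2 ratio of all genes compared was 0.02 against lungH and 0.05 against lungL. Among the 2747 genes at that level in any of the 3 libraries, 76 (2.77%) were higher and 90 (3.28%) lower than in both lung libraries. These counts share the lymphH cells, and so they are not independent of each other. A gene that reached 1 count per 10000 in 1 library alone could differ in that direction only, so counts over list members at this level are descriptions.

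The bulk libraries gave the replicated form of these comparisons. Bulk values are TPM, which scale reads for transcript length and library size, fold changes are differences of log2(TPM + 1), and adjusted p-values are from limma with Benjamini-Hochberg adjustment over 15348 genes. Genes were counted as differentially expressed (DEGs) when log2 fold changes exceeded 2 in size and adjusted p-values were under 0.05. LN CD44high bulk libraries had 1018 genes higher (6.63%) and 1184 lower (7.71%) than lung CD44high, and 944 higher (6.15%) and 2177 lower (14.2%) than lung CD44low. Rescaling each library by its median ratio to the other libraries moved the median of all genes from -0.16 to 0.03 against lung CD44high and from -0.28 to 0 against lung CD44low, and the counts became 1305 higher and 867 lower, and 1214 higher and 1722 lower. The p-values measure the spread between clones, 2 a group, and a lower level in bulk cannot be told apart from fewer cells of a type. With 2 libraries against 2, an exact permutation test cannot go below 0.333.

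The epithelial markers were DEGs in bulk as well. Cldn3 was at 808 and 806 TPM in the 2 LN CD44high libraries, at 0 in both lung CD44high libraries and at 0.10 and 0.16 in the lung CD44low libraries. The groups did not overlap, and the log2 fold changes were 9.66 (SE 0.17, adjusted p = 1.67e-09) and 9.48 (adjusted p = 2e-09). Epcam was at 941 and 820 TPM against at most 0.86 TPM in lung, with log2 fold changes of 9.18 (SE 0.34, adjusted p = 1.7e-07) and 9.78 (adjusted p = 1.85e-08). Cdh1 was at 34.05 and 41.81 TPM against at most 0.03, a difference of 5.25 (SE 0.32, adjusted p = 2.37e-06) and 5.28 (adjusted p = 8.43e-07). Krt8 was at 1624 and 1505 TPM, against 5.26 and 27.78 in lung CD44high and 0 in lung CD44low. Its log2 fold change of 6.86 against lung CD44high (SE 0.72, adjusted p = 7.61e-05) was thus far above the 1.62-fold ratio of the single cells.

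Among all 23 genes of epithelial adhesion and junctions, 6 reached the level for comparison in single cells, and 3 were higher and 0 lower than in each lung library, where 4.17% and 4.78% of all genes compared were higher, with median log2 ratios of 1.85 against lungH and 2.69 against lungL. In bulk, 11 of 23 were higher than in lung CD44high and 13 of 23 higher than in lung CD44low, against 6.63% and 6.15% of all genes, and 0 were lower, with median log2 fold changes of 1.88 and 2.51. Spint2, an inhibitor of epithelial serine proteases, was at 2.03 counts per 10000 in lymphH, 0.23 in lungH and 0.158 in lungL. Cldn3, Epcam and Spint2 were the 3 higher genes in single cells. They reached the level for comparison through lymphH alone, so that only a higher level in lymphH was possible. The tetraspanin Cd9, at 7.24, 8.27 and 8.27, and Perp, a desmosome-associated membrane protein, at 5.56, 4.03 and 3.45, were within 4-fold in both comparisons, although Cd9 was higher in bulk by 2.42 (adjusted p = 0.00125) and 3.97 (adjusted p = 3.85e-05). Krt19, a keratin of simple epithelia, and Cldn7, another claudin, had 0 counts in lymphH, so 6 of the 8 epithelial markers were detected.

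Of the keratins, Krt18 was at 1.05 counts per 10000 in lymphH, 2.55 in lungH and 0.511 in lungL, although in bulk it was higher in LN by 4.95 and 8.18 on the log2 scale. Krt7, another keratin of simple epithelia, was at 1.02, 0.0968 and 0.749, which was 10.5-fold above lungH, and was higher in bulk by 8.74 and 8.38. Wfdc2, a secreted protein of glandular epithelium, was 20.03-fold above lungH and 8.20-fold above lungL. Mfge8, a milk fat globule protein, was at 4.39, 2.75 and 3.27 and was within 4-fold in both. In the keratin list, 1 of 3 genes at the level for comparison was higher in each comparison (all genes, 4.17% and 4.78%), and 4 of 6 were higher in bulk in each (all genes, 6.63% and 6.15%). In the mammary luminal list, 1 of 3 was higher in each, and in bulk 5 of 14 were higher and 3 lower than in lung CD44high, where 6.63% and 7.71% of all genes were. Against lung CD44low 7 were higher and 0 lower (all genes, 6.15% and 14.2%). The single-cell counts of both lists came from Krt7 against lungH, Krt8 against lungL and Wfdc2. These reached the level through lymphH alone, so that only a higher level in lymphH was possible. Of the 16 epithelial regulators, none reached 1 count per 10000 in lymphH. Gata3, which specifies luminal cells, was at 0.119 in lymphH and 5.40 in lungH, 45.5-fold lower, and it was lower in bulk with a log2 fold change of -6.05 (adjusted p = 4.45e-06). The splicing regulator Esrp1 was at 0.326 in lymphH, with no count in either lung library, and was higher in bulk by 3.66 in both comparisons.

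The genes furthest above both lung libraries were mostly ones that are not classical epithelial markers. Unc13d (chr11:116062095-116077961, minus strand), which primes secretory granules for release, was at 3.14 counts per 10000 in 75.3% of lymphH cells and had no count in either lung library, giving ratios of at least 173-fold and 225-fold. The X-linked homeobox gene Rhox5 (chrX:37804842-37808876, plus strand), normally a gene of the reproductive tract and placenta, was at 2.54 in 231 cells (66.4%) with no count in lung, at least 140-fold and 182-fold higher. Col2a1 (chr15:97975602-98004695, minus strand), the type II collagen of cartilage, was at 1.54 in 50.6% of cells and was at least 84.7-fold and 110-fold higher. In each of these genes, no lung cell that passed the filter held a count. Rhox5 was found in 22.99%, 47.9% and 88.3% of cells in the 3 depth classes and Unc13d in 29.9%, 58.3% and 97.7%.

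Other genes of this set had functions in transport, mitochondria and adhesion. The water channel gene Aqp5 was at 4.21 counts per 10000 and 31.3-fold above lungL, and against the 3 counts of lungH its ratio had an interval of 79.3 to 1130. Chchd10, a protein of mitochondrial cristae, was at 3.18, at least 175-fold above lungH and 32.6-fold above lungL. Lad1, an anchoring filament protein of basement membranes, was at 2.66 and 40.8-fold above lungL. St6galnac2, a sialyltransferase, was 42.2-fold and 31.8-fold higher, and Stard10, a lipid transfer protein, was 33.2-fold and 20.2-fold higher. Slc47a1, an organic cation exporter, was at 1.02 and at least 56.4-fold and 73.4-fold higher. All of Unc13d, Rhox5, Col2a1, Aqp5, Chchd10, Lad1, St6galnac2, Stard10 and Slc47a1 were DEGs in both bulk comparisons, with log2 fold changes from 3.84 for Stard10 against lung CD44low to 8.87 for Aqp5 against lung CD44low.

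**Figure D2:**
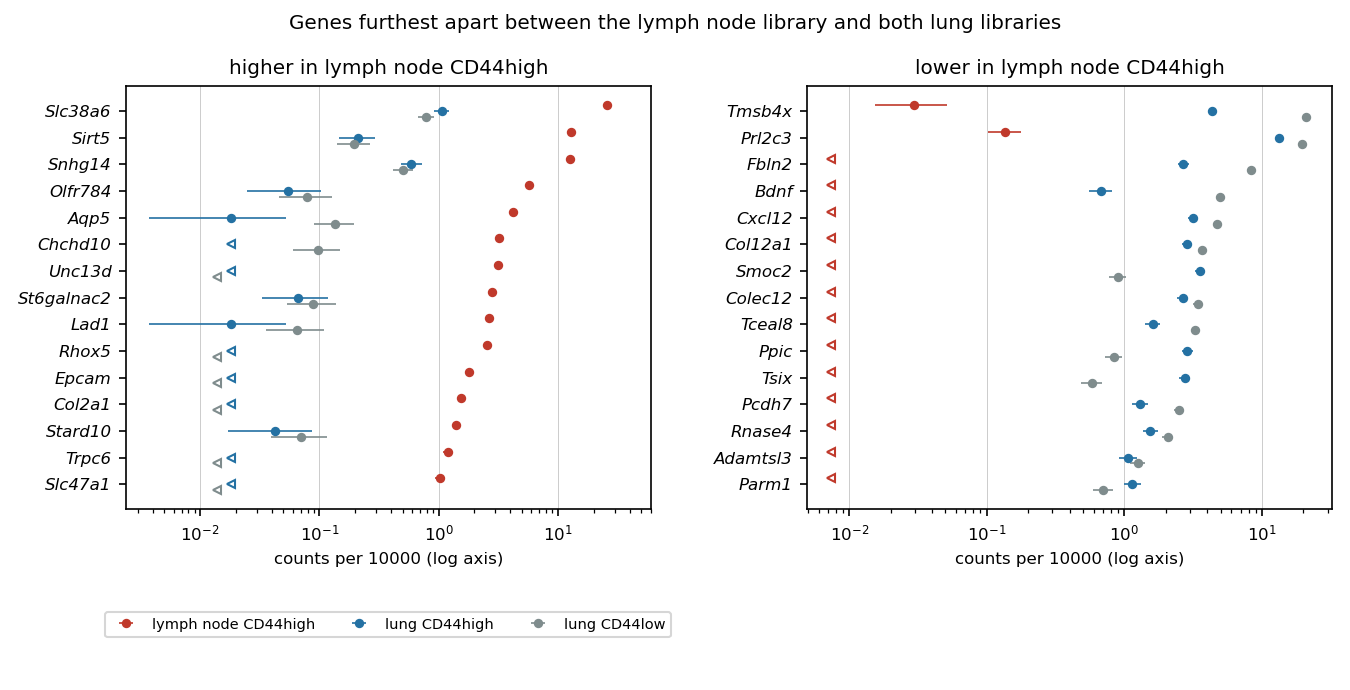
Counts per 10000 (log axis) of the 15 genes furthest above and the 15 furthest below both lung libraries in lymphH, with exact 95% Poisson intervals, and open triangles at the level of 3 counts for genes with fewer counts. Each red lymphH point lies clear of both lung points, and Slc38a6 has the largest lymphH level among the higher genes (26.0), while 13 of the 15 lower genes had fewer than 3 counts in lymphH.

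Some genes of this set were not DEGs in bulk. Sirt5, a mitochondrial desuccinylase, was at 12.98 counts per 10000 in lymphH against 0.212 in lungH and 0.195 in lungL, 61.3-fold and 66.4-fold higher. In bulk it was at 8.53 and 8.58 TPM in LN CD44high, 11.23 and 12.55 in lung CD44high, and 5.23 and 7.14 in lung CD44low, with log2 fold changes of -0.43 (adjusted p = 0.348) and 0.42 (adjusted p = 0.33). Slc38a6, an amino acid transporter, was 24.4-fold and 33.3-fold higher in single cells, and its bulk fold changes were -0.58 and -0.01. Snhg14, a long RNA of an imprinted region, was 21.2-fold and 24.8-fold higher, with bulk values of 0.68 and 1.14 that did not pass the fold threshold. The olfactory receptor gene Olfr784, at 5.77 counts per 10000 in lymphH, had at most 0.05 TPM in the LN CD44high and lung libraries and at most 0.21 TPM in any bulk library. The single-cell kit reads the 3′ end of transcripts and bulk TPM covers the whole transcript, and the part of this difference in these genes was not tested.

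The genes furthest below both lung libraries included a chemokine, matrix proteins and membrane proteins. Cxcl12, a chemokine that draws CXCR4-bearing cells, had no count in lymphH and stood at 3.15 counts per 10000 in lungH and 4.70 in lungL, at least 425-fold and 633-fold lower in lymphH. Fbln2, a fibulin of elastic fibers and basement membranes, also had no count and was at least 362-fold and 1130-fold lower. Col12a1, a fibril-associated collagen, had 1 count against 2.85 and 3.69 per 10000. Colec12, a scavenger receptor, had no count against 2.65 and 3.41, and the protocadherin gene Pcdh7 had none against 1.30 and 2.49. Rnase4, a secreted ribonuclease, had 1 count against 1.55 and 2.07, and Tceal8 had 1 count against 1.60 and 3.26. All 7 were lower in LN CD44high bulk libraries in both comparisons. The log2 fold changes were -5.09 (adjusted p = 9.69e-06) and -11.01 (adjusted p = 1.85e-08) for Cxcl12 and -7.87 and -9.75 for Fbln2.

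Here too, single genes differed from the bulk data. Tmsb4x, the actin-binding thymosin beta 4, was at 0.0297 counts per 10000 in lymphH, 4.35 in lungH and 21.1 in lungL. In bulk it was lower than in lung CD44low with a log2 fold change of -4.16, but against lung CD44high its fold change was 0.83 (adjusted p = 0.173). Prl2c3, a prolactin family hormone with close paralogs, was 98.3-fold and 145-fold lower in lymphH, whereas its bulk value was -0.72 against lung CD44high, not a DEG, and 2.40 against lung CD44low (adjusted p = 0.0287), which is higher in LN but was lost without the second LN CD44high library or either lung CD44low library (1.89 to 2.59, adjusted p from 0.0752 to 0.159). Reads of such paralogs may be split by the counting, so both values are uncertain. Bdnf, a neurotrophin, had 1 count in lymphH against 0.677 and 4.99 per 10000, and was lower in bulk with a log2 fold change of -4.59 and -7.21. Tsix had 1 count against 2.76 and 0.581, but it is antisense to Xist and strand use was not given in the sources used here, so the 2 genes could not be told apart.

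Over all genes, single-cell and bulk differences went together in part. Across 2365 genes measured in both against lung CD44high, Pearson's r between log2 ratios was 0.535 and Spearman's rho was 0.426, and across 2401 genes against lung CD44low they were 0.677 and 0.581, with genes not being independent replicates. Of the 81 genes more than 4-fold higher than lungH that were tested in bulk, 38 (46.9%) were DEGs in the same direction and 0 in the other. Of the 100 lower genes, 58 (58.0%) were lower and 4 higher in bulk. Among the 2184 genes within 4-fold, 152 were higher and 121 lower in bulk. Against lung CD44low, 55 of 98 higher genes (56.1%) and 142 of 186 lower genes (76.3%) were DEGs in the same direction, 1 and 3 in the other, and 115 and 287 of the 2117 remaining genes were higher and lower.

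**Figure D3:**
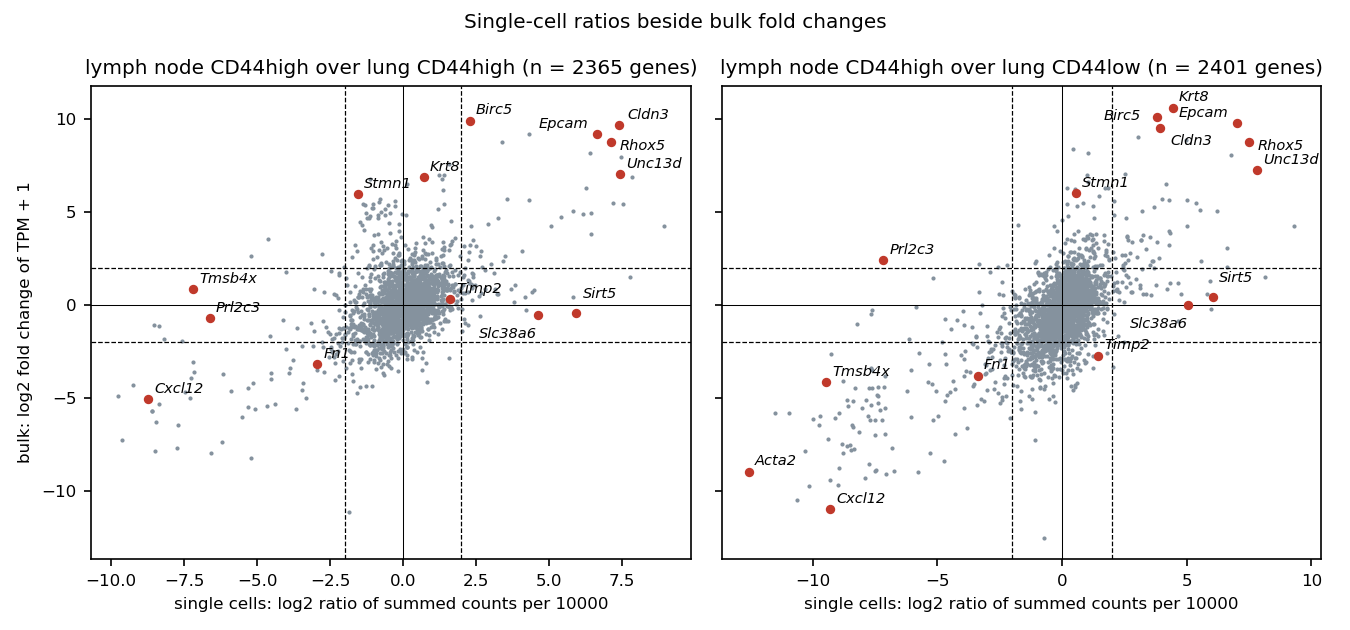
Log2 ratio of summed counts per 10000 in single cells (horizontal axis) against the bulk log2 fold change of TPM + 1 (vertical axis), 1 point a gene, for lung CD44high (2365 genes) and lung CD44low (2401 genes), with dashed lines at a log2 of 2 and -2. Cldn3, Epcam, Rhox5 and Unc13d lie high on both axes, Cxcl12 lies low on both, and Sirt5 and Slc38a6 lie high in single cells with bulk values between -0.58 and 0.42.

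The genes that marked the LN cells were read across all bulk groups. Rhox5 was at 432.47 to 445.64 TPM in LN CD44high and at 396.01 to 488.36 in LN CD44low. In BM it was at 412.01 to 423.20 (CD44high) and 421.31 to 514.98 (CD44low). It was at 0.21 to 0.96 TPM in MFP and at 0 in all 4 lung libraries. The 4 LN and 4 BM libraries thus overlapped each other and lay apart from MFP and lung. Col2a1 had a like order, except that LN CD44low, at 49.7 to 60.37 TPM, lay below the 281.6 to 299.69 of LN CD44high and the 223.32 to 287.01 of BM, with MFP at 0.02 to 0.38 and lung at 0.14 or less. Unc13d was at 205.59 to 215.16 in LN CD44high, 198.86 to 210.29 in LN CD44low and 143.95 to 228.4 in BM, at 24.26 to 31.36 in MFP and at most 1.06 in lung. Epcam, by contrast, was at 725.37 to 836.53 in MFP, which overlapped the 820.07 to 941.14 of LN CD44high, with LN CD44low at 315.09 to 567.29 and BM at 463.6 to 794.34. Cxcl12 was 0 in all LN libraries, at most 0.01 in BM, 0.4 to 2.38 in MFP, 30.04 to 36.23 in lung CD44high and 1687 to 2522 TPM in lung CD44low. These orders are a description, since the genes had been chosen for their difference between LN and lung.

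**Figure D4:**
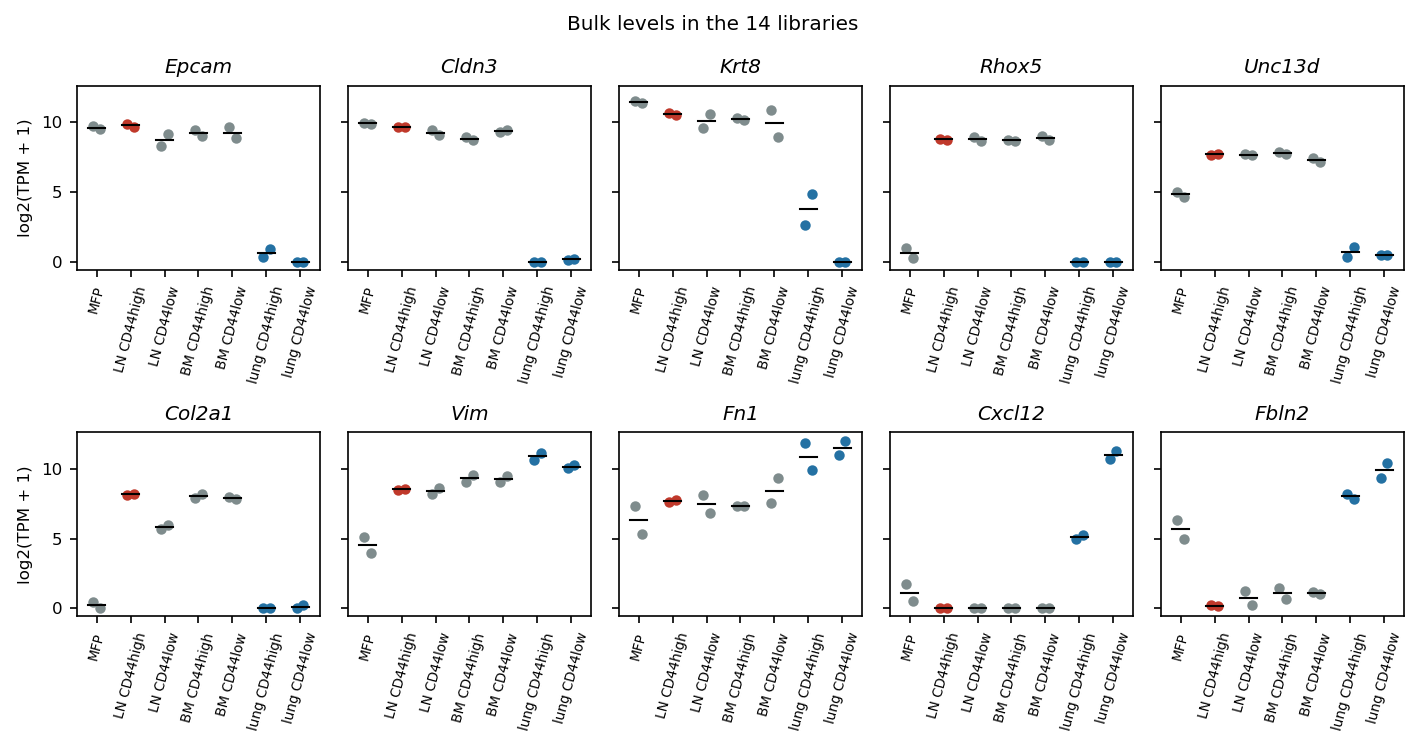
Bulk level as log2(TPM + 1) of 10 genes in the 14 libraries, 2 points a group with a line at their mean, with LN CD44high in red, lung in blue and the other groups in gray. Rhox5 and Col2a1 are high in LN and BM only (396.01 TPM or more for Rhox5), Epcam, Cldn3 and Krt8 are high in MFP too, and Cxcl12 is highest in lung CD44low (1687 to 2522 TPM), with lung CD44high at 30.04 to 36.23.

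EMT and mesenchymal genes were mostly at lower levels in the LN cells. The list summed to 23.9 counts per 10000 in lymphH, 101 in lungH and 105 in lungL. Against lungH, 4 of 8 genes at the level for comparison were more than 4-fold lower and 0 higher (median log2 ratio -2.11), and against lungL 6 of 10 were lower and 0 higher (-2.32), while 4.25% and 7.7% of all genes compared were lower. Fn1 was at 5.29 in lymphH, 40.4 in lungH and 55.3 in lungL, and in bulk it was lower with a log2 fold change of -3.20 (adjusted p = 0.0144) and -3.82. The call against lung CD44high was lost without either LN CD44high library, at much the same fold changes (-3.12, adjusted p = 0.0667, and -3.28, adjusted p = 0.056), and without the first lung CD44high library (-2.23, adjusted p = 0.124). Vim was at 6.27, 34.6 and 21.1, 5.53-fold and 3.36-fold lower, and bulk put it lower with a log2 fold change of -2.37 against lung CD44high (adjusted p = 0.000765) and at -1.62, short of the fold threshold, against lung CD44low, and rescaling brought the former to -1.98, also short of it. Aebp1, a matrix-associated repressor, was 37.4-fold and 19.5-fold lower. The receptor kinase Axl, at 3.91, 6.66 and 4.52, and N-cadherin (Cdh2), named after its value was seen, at 3.63, 3.04 and 1.15, were within 4-fold in both comparisons. In bulk, 9 of 19 list genes were lower and 1 higher than in lung CD44high, and 7 lower and 1 higher than in lung CD44low, against 7.71% and 14.2% of all genes lower. Zeb1 was lower in bulk with a log2 fold change of -4.13 and -4.14. Zeb2 was lower than in lung CD44high (-2.78, adjusted p = 0.0023) and at -1.88 against lung CD44low, short of the fold threshold. Snai1 and Snai2 were lower than in lung CD44low (-5.03 and -3.43) and at 0.71 (adjusted p = 0.232) and -0.98 (adjusted p = 0.109) against lung CD44high, not DEGs.

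Extracellular matrix genes differed mainly between the LN cells and lungL. The list, to which Col2a1 does not belong, summed to 22.4 counts per 10000 in lymphH, 40.8 in lungH and 217 in lungL. In that comparison 15 of 18 genes were more than 4-fold lower and 0 higher (median log2 ratio -5.06), against 7.7% of all genes lower, although genes that reached the level through lungL alone could only be lower. In bulk 19 of 29 were lower and 2 higher, against 14.2% of all genes lower. Against lungH, 4 of 11 were lower and 0 higher (-1.80), where 4.25% and 4.17% of all genes were, and in bulk 4 of 29 were lower and 5 higher with a median of 0.05, against 7.71% of all genes lower and 6.63% higher. Thbs1, an anti-angiogenic adhesion protein, was at 5.59, 9.77 and 49.5 counts per 10000, and Ccn2, a matricellular growth factor, at 0.603, 0.871 and 25.3. Igfbp4, which binds insulin-like growth factors, was at 0.126, 1.27 and 13.3 and was lower in bulk with a log2 fold change of -5.02 and -8.96. Mgp, an inhibitor of calcification, was 24.9-fold lower than in lungH, yet its bulk fold change against lung CD44high was 3.53 (adjusted p = 0.016), with 628 and 222 TPM in LN against 63.76 and 15.13. That call was lost without the first LN CD44high library (2.79, adjusted p = 0.111) or the second lung CD44high library (2.53, adjusted p = 0.118). The myoepithelial gene Acta2, a smooth muscle actin, had no count in lymphH and 44.7 per 10000 in lungL, at least 6032-fold lower. The 4 myoepithelial genes at the level for comparison had reached it through lungL alone, so that only a lower level in lymphH was possible.

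Markers of other cell types were scarce in lymphH. Fibroblast markers summed to 61 counts (0.151 per 10000, against 0.593 in lungH and 22.5 in lungL), with Col3a1, Dcn, Lum and Thy1 at 0. Myoepithelial markers were at 0.218, 0.157 and 46.9, with Krt5, Trp63, Acta2, Myh11 and Oxtr at 0 in lymphH. Macrophage markers were at 0.232, 0.544 and 0.293, with Adgre1, C1qa, C1qb, Fcer1g and Tyrobp at 0. The B cell and pan-leukocyte lists had 0 counts, the T cell list 26, the endothelial list 1 and the erythroid list 1 among 4045692 counts. B cell and pan-leukocyte transcripts were thus not detectable by these lists at this depth. The matrix genes that were lower than in lungL moved with the fibroblast and myoepithelial lists, and the part of such cells in that difference was not tested.

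Proliferation genes differed between single cells and bulk. Cycling markers were at 14.96 counts per 10000 in lymphH, 14.5 in lungH and 4.08 in lungL. For the mitosis list the sums were 28.2, 37.0 and 11.1, with 1 of 15 genes higher and 0 lower than in lungH (median log2 ratio -1.03) and 2 of 9 higher and 0 lower than in lungL (1.01), where 4.17% and 4.78% of all genes were higher. Of the S phase genes, 0 of 15 were higher and 1 lower than in lungH (-0.80), too few to set apart from the 4.25% of all genes lower. Against lungL, 0 of 11 were past 4-fold (0.38). After thinning, 64.1% of lymphH, 64.5% of lungH and 38.6% of lungL cells had a count in the list. In bulk, 20 of 21 genes were higher in LN CD44high in each comparison (medians 4.91 and 5.11), as were 15 and 18 of 18 S phase genes (3.13 and 3.46), against 6.63% and 6.15% of all genes. Birc5, the survivin gene, was 4.86-fold above lungH and 14.2-fold above lungL, and was higher in bulk by 9.90 and 10.07. Stmn1, a microtubule destabilizer, was at 1.37, 4.004 and 0.939 counts per 10000, lower than lungH by ratio, but was higher in bulk by 5.93 and 6.0. Top2a, which untangles DNA before mitosis, was at 1.63, 3.65 and 1.41, with bulk values of 4.66 and 5.43. The near-equal sums of the cycling list rested on Birc5, at 9.09 in lymphH and 1.87 in lungH, since Top2a, Mki67 and Ccnb1 had log2 ratios of -1.16, -1.03 and -0.84 against lungH. In bulk these 3 genes were higher in LN than in lung CD44high. For Pcna, the DNA polymerase clamp, the levels were 4.03, 9.49 and 3.14.

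Of the cyclins and growth arrest genes, 1 of 6 was higher and 0 lower than in lungH, and 0 of 7 higher and 1 lower than in lungL. These are too few to set apart from all genes, of which 4.17% were higher and 4.25% lower than in lungH and 4.78% and 7.7% than in lungL. Ccng1, a target of p53, was at 4.58, 0.901 and 2.51 counts per 10000, 5.08-fold above lungH, and Ccnd2, a G1 cyclin, was at 0.0297, 0.194 and 3.32, 112-fold below lungL. In bulk, 2 of 14 genes of this list were higher and 1 lower than in lung CD44high (all genes, 6.63% and 7.71%), and 1 higher and 8 lower than in lung CD44low (all genes, 6.15% and 14.2%). Glycolysis and hypoxia genes summed to 142 counts per 10000 in lymphH, 77.0 in lungH and 124 in lungL. Their median log2 ratio was 0.82 against lungH, with 0 of 12 past 4-fold. In bulk 7 of 20 were higher and 0 lower than in lung CD44high (median 1.67), and 0 higher and 2 lower than in lung CD44low (0.76), the latter below the 14.2% of all genes. Pkm, the pyruvate kinase gene, was at 26.1, 14.7 and 23.7 counts per 10000 and Ldha, lactate dehydrogenase A, at 18.2, 7.20 and 16.3, and both were higher in bulk against lung CD44high, by 2.11 (adjusted p = 0.00355) and 3.0.

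Secreted signals were divided. Chemokines and cytokines summed to 16.6, 39.3 and 50.2 counts per 10000, and 1 of 5 was higher and 2 lower than in lungH, and 5 of 7 lower than in lungL, where 4.17% of all genes were higher and 4.25% lower, and 7.7% lower. Osteopontin (Spp1) was at 5.33, 29.3 and 24.9, 5.51-fold and 4.67-fold lower, yet its bulk fold changes were 1.80 (adjusted p = 0.0943) and 2.16 (adjusted p = 0.0427), the latter higher in LN, a call lost on leaving out any 1 of the 4 libraries (1.89 to 2.43, adjusted p from 0.0923 to 0.169). The macrophage growth factor Csf1 was at 1.14, 1.87 and 9.28, and Mif, a macrophage migration inhibitory factor, at 7.67, 4.09 and 6.31. Lcn2, an iron-binding acute-phase protein, was at 0.576, 0.0363 and 0.0977, and bulk put it at 3753 and 2686 TPM against 3.63 and 6.49 in lung CD44high, higher by 9.07 (adjusted p = 0.000127). In bulk, 9 of 19 chemokine genes were higher and 2 lower than in lung CD44high, and 8 higher and 5 lower than in lung CD44low. For the acute-phase list, 6 of 12 were higher and 1 lower than in lung CD44high, and 5 higher and 1 lower than in lung CD44low. Over all genes, 6.63% were higher and 7.71% lower in the former comparison and 6.15% and 14.2% in the latter, so the share of lower acute-phase genes was near or below that of all genes.

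Of the sorting and stem cell markers, 1 of 15 was higher and 2 lower than in lungH, and 2 of 13 were higher and 0 lower than in lungL, numbers too small to set apart from the 4.17% and 4.25%, and 4.78% and 7.7%, of all genes. In bulk, 3 of 20 were higher and 4 lower than in lung CD44high (all genes, 6.63% and 7.71%), and 5 higher and 6 lower than in lung CD44low (all genes, 6.15% and 14.2%). Cd44, the gene behind the sort, was at 4.94 counts per 10000 in lymphH, 4.91 in lungH and 8.57 in lungL, and its bulk fold change was 1.58 in both comparisons, short of the threshold. Its RNA thus did not follow the surface sort, being highest in the CD44low library. In bulk it was lower in LN CD44high, at 49.04 and 52.26 TPM, than in LN CD44low, at 146.7 and 82.72. The CD44high and CD44low libraries overlapped in lung and in BM. The study reports that CD44 changed between the first isolates and the cells profiled. Cd24a, a surface glycoprotein of luminal cells, was at 8.61, 6.51 and 4.25. Ly6e was at 9.25, 3.71 and 3.95 and was higher in bulk by 6.77 and 3.53. Aldh3a1, an aldehyde dehydrogenase, was at 0.0445, 14.6 and 0.316, 329-fold below lungH, but in bulk it was -1.14 against lung CD44high, not a DEG, and higher by 3.75 against lung CD44low. Ly6a, which encodes Sca-1 and is named here after its value was seen, was 294-fold below lungH, with a bulk value of -1.86 that was not a DEG. Of the antigen presentation genes, H2-K1, a class I heavy chain, was at 5.41, 2.26 and 1.497 and was higher in bulk by 2.05 (adjusted p = 0.00137) and 3.24 (adjusted p = 5.52e-05). The interferon-induced Ifitm3 was 12.4-fold and 6.78-fold lower in single cells. It was the 1 of 5 genes of its list past 4-fold in each comparison, too few to set apart from the 4.25% and 7.7% of all genes that were lower.

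Lysosomal proteases and their inhibitors were lower or within 4-fold. Cathepsin D (Ctsd) was at 15.5, 37.1 and 16.1 counts per 10000, and cathepsin B (Ctsb) was at 3.97, 14.4 and 25.5, 6.44-fold below lungL, and lower in bulk with a log2 fold change of -2.45 and -2.16, the latter -1.75 after rescaling. Timp2, an inhibitor of matrix metalloproteinases, was at 34.3, 11.2 and 12.5, but its bulk values were 0.30 and -2.74 (adjusted p = 0.0122). The latter call was lost without the second LN CD44high library (-2.41, adjusted p = 0.0743) or the second lung CD44low library (-2.64, adjusted p = 0.0628), with the level still lower in LN. For the protease list, the counts were 0 of 10 past 4-fold against lungH and 6 of 13 lower against lungL (all genes, 7.7%). In bulk 2 of 17 were higher and 5 lower than in lung CD44high (all genes, 6.63% and 7.71%), and 0 higher and 10 lower than in lung CD44low (all genes, 6.15% and 14.2%). In the glutathione and antioxidant list, 2 of 12 were lower than in lungH (all genes, 4.25%) and 1 of 9 lower than in lungL (all genes, 7.7%), with 0 higher in each. In bulk 2 of 15 were higher and 1 lower than in lung CD44high (all genes, 6.63% and 7.71%), and 0 higher and 6 lower than in lung CD44low (all genes, 6.15% and 14.2%). Gclm, a subunit of the enzyme that makes glutathione, was at 2.03, 5.86 and 1.10. Among stress and immediate early genes, 0 of 4 were past 4-fold against lungH and 2 of 6 were lower than in lungL (all genes, 7.7%). In bulk 2 of 15 were higher and 2 lower than in lung CD44high (all genes, 6.63% and 7.71%), too few to set apart from all genes. Against lung CD44low, 0 were higher and 6 lower (all genes, 6.15% and 14.2%). Of the imprinted genes, Peg3 was at 1.36, 0.635 and 0, and Grb10, an adaptor that restrains growth factor signaling, had no count in lymphH and 2.65 in lungL, and was lower in bulk with a log2 fold change of -7.81 (adjusted p = 2.19e-08).

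The most abundant transcripts of lymphH outside ribosomal protein and mt- genes included Fth1 and Ftl1, the ferritin chains, at 87.1 and 79.6 counts per 10000, and the actin Actb at 70.7. Sumo2, a ubiquitin-like modifier, was at 41.5 against 19.2 in lungH and 6.92 in lungL, and was higher in bulk than lung CD44low by 3.66 (adjusted p = 1.03e-06). Several of the most abundant genes had little or no bulk signal. Gm38226, the highest at 101 counts per 10000, and Gm37167 at 27.0 were at no more than 1 TPM and 0.29 TPM in any bulk library. The olfactory receptor gene Olfr907 was at 0 TPM in all 14 bulk libraries, although it was at 38.2, 42.7 and 49.3 in the 3 single-cell libraries. Noct, a circadian deadenylase, was at 36.8 against 2.83 and 1.48, with 2.58 and 2.47 TPM, and Zfp934 was at 35.2 against 1.88 and 0.558, with 4.08 and 3.84 TPM.

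The lymphH cells were clustered to describe how they varied among themselves. There were 5 clusters at a resolution of 0.8. They changed when cells were thinned to 1000 counts, which also discarded counts and left out 42 cells. The adjusted Rand index against these clusters was then 0.332, and only 51 of the 87 cells of cluster 2 stayed together. At a resolution of 1.2 with all counts, 46 of the 87 stayed together, with an index of 0.803. The part of unequal depth in the clusters was not tested apart from the loss of counts. Cluster 1 (100 cells, 28.7%) had a median of 1092 counts a cell and 3.16% of counts in mt- genes, was led by AY036118, a transcript of the ribosomal DNA region, and was given no name. Cluster 2 (87 cells, 25%) was led by Birc5, which was at 17.4 counts per 10000 against 4.0 in the other cells, with Pclaf, Anln, Top2a and Mki67, genes of DNA synthesis and mitosis. Cluster 3 (66 cells, 18.97%) was led by mt- genes such as mt-Nd1, at 48.2 against 6.21. Cluster 4 (54 cells, 15.5%) was led by Lgals3, the gene of galectin-3, at 23.8 against 12.04, with Ppia and the tetraspanin Cd63. Cluster 5 (41 cells, 11.8%) was led by Hist1h2bc, Kdm7a, Idh1, Slc5a3 and Hspb8. The cycling list stood at 28.4 counts per 10000 in cluster 2, 15.5 in cluster 3 and 11.7 in cluster 1, but at 0.818 in cluster 4 and 0.74 in cluster 5.

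The genes that set lymphH apart from lung were found in all 5 clusters, though not at the same level. Cdh1 had 1 count in the 100 cells of cluster 1 (0.0512 per 10000) and was at 0.0907 in cluster 5, against 0.483 to 0.627 in the other 3. Unc13d lay between 2.92 and 3.48 counts per 10000 in all 5 clusters, and Rhox5 between 1.71 in cluster 5 and 3.86 in cluster 4. Epcam was at 2.71 in cluster 4 and 0.801 in cluster 5, and at 1.74 to 1.90 in the other 3, while Vim was at 3.58 in cluster 1 and 5.89 to 6.71 elsewhere. In a joint clustering of the 3 libraries, each of the 348 lymphH and 221 lungH cells lay in a cluster led by its own library, and 2 lungL cells, of 1458 and 1021 counts, lay in a lymphH cluster. Scrublet called 13 lymphH cells doublets. The counts of genes past 4-fold without cluster 1, an alternative chosen after the data were seen, were 104 higher and 102 lower against lungH and 120 and 190 against lungL, and without cluster 3 they were 104 and 109, and 121 and 190. Across cells thinned to 1000 counts, variance over mean had a median of 1.11 over 1944 genes, and the largest values were those of Gm42418 (8.65) and mt-Co1 (7.13).

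**Figure D5:**
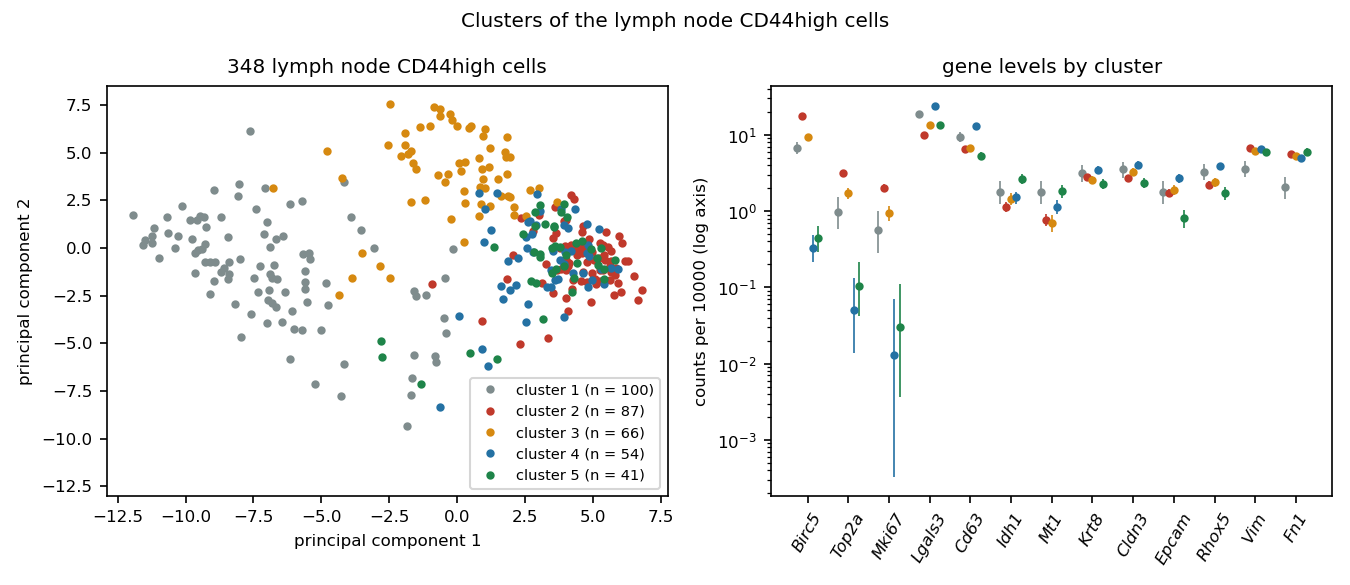
Left, the first and second principal components of the 348 lymphH cells, colored by cluster, and right, counts per 10000 (log axis) of 13 genes in each cluster with exact 95% Poisson intervals. Clusters 4 and 5 lie below the others in Birc5, Top2a and Mki67 (0.333 and 0.438 against 6.71 or more for Birc5), and Rhox5 and Epcam are present in all 5.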

How the data were processed

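Single cells were profiled with a droplet kit that reads transcript 3′ ends (ddSEQ), and bulk RNA with a modified SMART-seq2 protocol, which covers whole transcripts. Per the labels and the study's methods, the authors used mm10 and GENCODE throughout, and deposited single-cell matrices of raw counts made with kallisto (35849 genes) and 1 bulk table of TPM made with STAR and RSEM (55450 genes). Versions of these tools and the handling of molecular identifiers are not given in the sources used here. The filter (over 500 genes, under 10% mt- counts) left 348 lymphH, 221 lungH and 235 lungL cells, whose counts were summed and scaled per 10000. Genes with at least 1 per 10000 in either library were compared, with a 4-fold limit and a floor of 3 counts. Cells were clustered with scanpy 1.11.5 (2000 variable genes, 20 principal components, 15 neighbours, Leiden resolution 0.8), and doublets were called with Scrublet but kept. Bulk log2(TPM + 1) values were tested with limma 3.58.1 in R 4.3.3 (lmFit, eBayes with trend) in 1 fit of all 14 libraries (7 group means, leaving 7 degrees of freedom), for 15348 genes with at least 1 TPM in 2 libraries. The authors used an edgeR exact test on counts, which could not be applied to TPM, and the TPM table does not hold the depth of each bulk library, for which the study's methods give only a minimum. Kept cells held 4045692, 1653494 and 2150544 counts (71.1%, 51.8% and 72.0% of each matrix). Scripts were tested on simulated data.

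Named genes were the 3 markers Cldn3, Cdh1 and Krt8, the 15 genes furthest above and below both lung libraries, the 15 most abundant and the 15 most variable genes, leading cluster genes, and from each of 19 gene lists up to 6 with the highest level. Zeb1, Zeb2, Snai1, Snai2, Cdh2 and Ly6a were named after their values were seen. The members, lists and tests were chosen with earlier results of these data known. Alternatives covered the cell filters, scaling, thinning, doublets, cluster resolution, pseudocount, TPM filter, replicate block and libraries left out. Bulk replicate numbers were checked for pairing.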

Additional observations from a re-analysis of the deposited data

Results flagged for a closer look

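Barcodes with 500 genes or fewer were not used in the comparisons. In the 2907 such lymphH barcodes, which held 1537493 counts, genes of the lymph node culture were present above the lung libraries, and that is why they are listed. Epcam was at 1.639 counts per 10000, against 1.81 in the kept lymphH cells. Rhox5 was at 2.875 against 2.54, and Unc13d at 2.615 against 3.14. In the lung barcodes with 500 genes or fewer none of the 3 genes was above 0.0365 per 10000. Fn1 was at 2.38 in these lymphH barcodes and 5.29 in kept cells. Whether these barcodes were small cells or free RNA was not tested.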

How the results depend on the processing

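No value past its threshold changed direction under an alternative. Of the 428 named genes in single cells, at least 389 kept their call in each setting, and of the 324 to 368 tested in bulk, 320 to 368 did. The counts of genes past 4-fold lay between 97 and 107 higher and 98 and 153 lower against lungH, and between 113 and 135 higher and 189 and 239 lower against lungL, over the other cell filters, doublet removal, scaling, thinning and joint clusters. Lowering the filter to 0.2 per 10000 admitted more genes and gave 308 higher and 391 lower against lungH and 325 and 599 against lungL. A resolution of 1.2 gave 8 clusters, and the other cluster settings gave 4 or 5. When cells were thinned to 1000 counts, 51 of the 87 cells of cluster 2 stayed together and the adjusted Rand index against the clusters in the report was 0.332, so the clusters were largely not recovered at equal counts. At resolutions of 0.4 and 1.2, 87 and 46 of the 87 cells stayed together, with indices of 0.831 and 0.803. In bulk, a pseudocount of 0.1 gave 1778 higher and 1896 lower against lung CD44high and 1605 higher and 3032 lower against lung CD44low. Leaving out 1 library at a time gave 906 to 1023 higher and 949 to 1290 lower against lung CD44high, and 836 to 933 higher and 1566 to 2111 lower against lung CD44low, with the lone library assumed to vary like the other groups. Deviations of same-numbered bulk libraries correlated across genes at -0.02 and 0.11 between LN CD44high and the lung groups, and at -0.19 between the lung groups. With 2 libraries a group, these values cannot decide whether replicate numbers pair the libraries by mouse. With the replicate block, 1013 genes were higher and 1171 lower against lung CD44high, and 940 and 2159 against lung CD44low. Single-cell groups had 1 library each, so no spread between libraries could be measured.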
